A study of Homo sapiens with 12 samples.

Results

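The transcriptome of MRG15-targeted cells (KO) was compared with that of non-targeting control cells (NT) on day 6 of reprogramming, with 3 libraries in each group. The comparison covered 15042 genes of the 60660 gene identifiers in the deposited table. These were all genes whose mean value over the 6 libraries lay at least 1 above the table's minimum of 4.85, a limit that stands for an estimated 14.4 normalised counts. Within 0.1 of that limit, 385 genes lay just inside and 418 just outside. Of the genes tested, 251 were under the limit in KO libraries only and 192 in NT libraries only, and such a gene passed through the group in which it was high.

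Every library came from dH1f, a line of fibroblasts differentiated from H1 human embryonic stem cells. KO cells of day 6 carried the lentiCRISPRv2 vector with a guide against MRG15 and had received OSKM, the reprogramming factors OCT4 (gene POU5F1), SOX2, KLF4 and MYC. NT cells of day 6 carried a non-targeting vector and had received the same factors. KO and NT cells were also collected before OSKM, called day 0 here, again with 3 libraries each. A single guide code, G22, stands in the names of all KO libraries, and no second guide or re-expression of MRG15 was analysed here. The labels do not say whether replicates were separate infections or cultures, and the p-values therefore cover the variation among these libraries alone, which may be technical. Protein was not measured.

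MRG15, the product of MORF4L1, is a chromodomain protein that binds histone H3 methylated on lysine 36. It is a subunit of the NuA4 (TIP60) histone acetyltransferase and of SIN3B histone deacetylase complexes, and it has been linked to splicing through the protein PTB. In fibroblasts that receive OSKM, contractile and matrix genes are shut down and cells take on epithelial features before the endogenous pluripotency genes come on, so day 6 is an early stage at which few cells are pluripotent.

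Levels below are estimated normalised counts per library, and they are not scaled by gene length. Differences are KO minus NT on the log2 scale of the variance-stabilised (VST) values, ± SE. A gene was called when the Benjamini-Hochberg adjusted p of limma, taken over all genes tested, was under 0.05. Estimated depth was 17.83 to 20.53 M reads in the KO libraries and 20.79 to 22.17 M in the NT libraries of day 6. Mitochondrial transcripts took 4.99 to 5.53% of reads in KO and 5.12 to 5.43% in NT libraries. The 10 most abundant genes took 6.44 to 6.86% of reads in KO and 8.7 to 9.0% in NT libraries.

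On day 6, 5674 genes (37.7% of those tested) were called. KO cells were higher for 2848 genes (18.9%) and lower for 2826 (18.8%). The sizes were less even. Of the genes called lower, 256 (1.7% of those tested) differed by more than 1, against 48 (0.319%) of those called higher. The median absolute difference was 0.34 among genes called higher, 0.44 among genes called lower and 0.19 over all genes tested. Groups did not overlap for 7478 genes (49.7%). The first principal component of the 6 libraries held 67.3% of the variance and separated KO from NT, and Pearson correlations within a group lay between 0.993 and 0.9939. Genes called lower spanned a median of 41.0 kb of genome, against 24.9 kb for genes called higher and 30.9 kb over all genes tested.

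**Figure D1:**
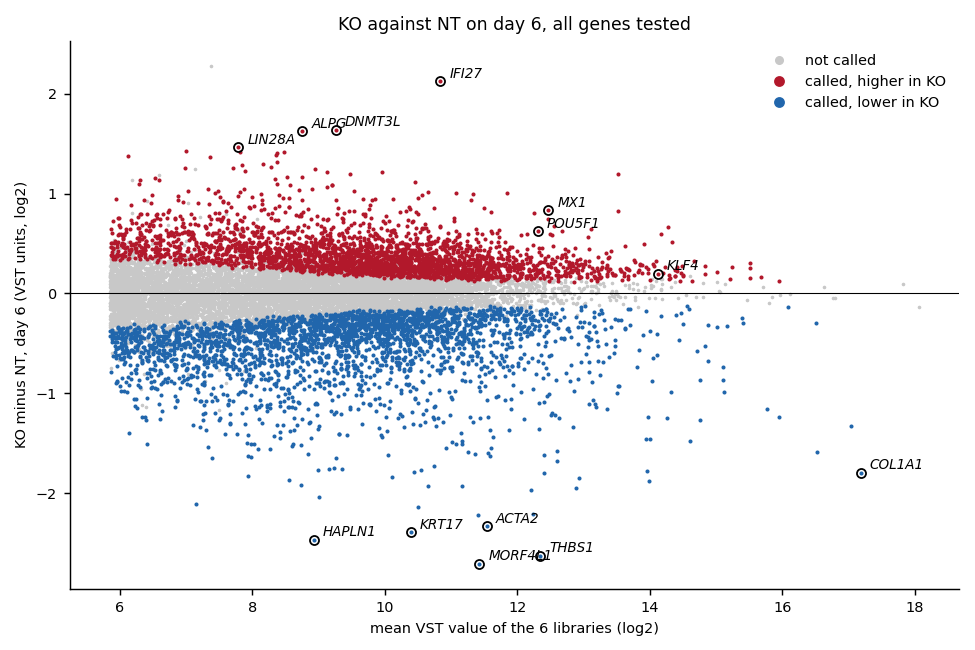
Difference between KO and NT on day 6 (y, VST units, log2) against the mean VST value of the 6 libraries (x, log2) for the 15042 genes tested, with called genes coloured and some named genes circled. Differences reach 2.12 for IFI27 among called genes higher in KO and -2.70 for MORF4L1 among those lower, and many more points lie below -1 (256) than above 1 (48).

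MORF4L1, the gene targeted by the guide (GRCh38 chr15:78810487-78898133, plus strand), had the lowest difference of all named genes. It had 1059, 961 and 1040 in KO libraries, against 6709, 7116 and 7043 in NT libraries. KO libraries thus kept 14.7% of the NT level on this scale (difference -2.70 ± 0.053, adjusted p = 4.59e-10), and the groups were far apart. MORF4L1P1, a processed pseudogene whose sequence derives from MORF4L1, was lower as well (difference -1.83), and reads could have been split between the copies. The paralog MORF4L2, whose product also joins the NuA4 complex, had 5059, 4884 and 4854 in KO libraries, against 4944, 5134 and 5439 in NT libraries. Its groups overlapped and it was not called (difference -0.07 ± 0.048, adjusted p = 0.303).

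Among 22 tested genes of MRG15, its paralog and the NuA4 and SIN3B complexes, 3 were called higher and 3 lower. Over all genes tested 18.9% were called higher and 18.8% lower, so neither share was above that of all genes. The median difference was 0.04, against 0.01 over all genes tested. ASH1L, a histone H3 lysine 36 methyltransferase that MRG15 binds and activates, had 1100, 1046 and 942 in KO libraries, against 1347, 1461 and 1518 in NT libraries (difference -0.47 ± 0.071, adjusted p = 0.000527). EP400, the ATPase of NuA4, fell by a smaller amount (-0.19 ± 0.054). HDAC2, the deacetylase, was higher (0.30 ± 0.059), as were the MRG-binding proteins MRFAP1 (0.16) and MRFAP1L1 (0.21). The call of MRFAP1L1 was marginal: its adjusted p was 0.033, and it was lost without KO replicate 1 (0.108), KO replicate 3 (0.1) or NT replicate 1 (0.121). The number of list members called higher was 1 in each of these 3 fits. The deacetylase scaffold SIN3B itself differed by -0.20 and was not called.

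**Figure D2:**
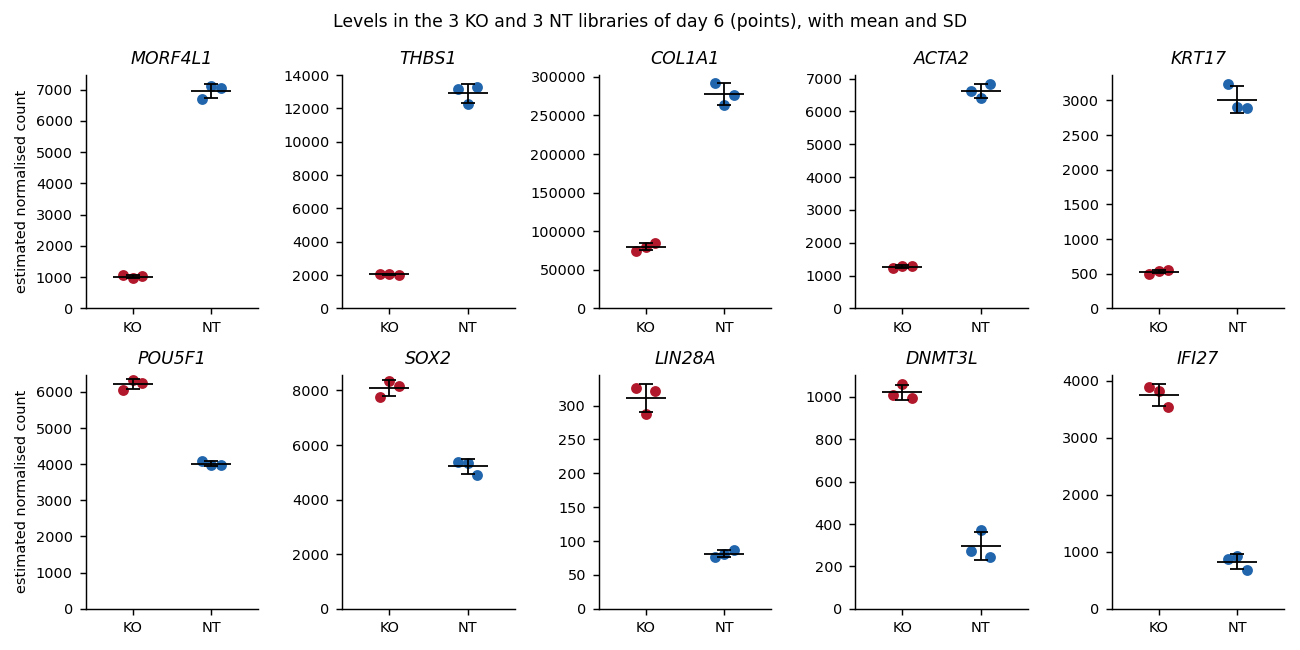
Estimated normalised counts (y, linear from 0) of 10 genes in the 3 KO (left) and 3 NT (right) libraries of day 6, with the mean (line) and SD (bar) of each group. MORF4L1, THBS1, COL1A1, ACTA2 and KRT17 lie lower in KO, and POU5F1, SOX2, LIN28A, DNMT3L and IFI27 lie higher, without overlap between the groups.

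Transcripts of the OSKM factors were abundant in both groups and modestly higher in KO cells. POU5F1 had 6056, 6329.9 and 6249 in KO libraries, against 4101, 3973 and 3981 in NT libraries (1.55-fold higher, difference 0.62 ± 0.042, adjusted p = 1.9e-06). SOX2 had 7754, 8352 and 8171 in KO libraries, against 5384, 5351 and 4912 in NT libraries (1.55-fold higher, 0.63 ± 0.051). KLF4 differed less, with 18008, 19513 and 19474 in KO libraries, against 16674, 16221 and 16710.2 in NT libraries (0.20 ± 0.044, adjusted p = 0.00497). MYC had 16495, 17048 and 17722 in KO libraries, against 15859, 15244 and 15566 in NT libraries (0.13 ± 0.042, adjusted p = 0.0275). The MYC call was marginal and was lost without KO replicate 2 (adjusted p = 0.056), KO replicate 3 (0.117), NT replicate 2 (0.0746) or NT replicate 3 (0.0604). In these data transcripts of the introduced factors and of the endogenous genes cannot be told apart, and unequal delivery of OSKM to KO and NT cells was not tested.

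The pluripotency network leaned upward. Of 30 listed genes 23 were tested, and 13 of these were called higher and 1 lower (median difference 0.40, against 0.01 over all genes). The shares over all genes tested were 18.9% and 18.8%. Untested members, among them NODAL, FGF4 and DPPA3, lay under the limit. DNMT3L, a catalytically inactive partner of the DNA methyltransferases that is expressed in pluripotent and germ cells, had 1009, 1063 and 994 in KO libraries, against 272, 371 and 245 in NT libraries (3.45-fold higher, 1.64 ± 0.12, adjusted p = 2.41e-06). LIN28A, an RNA-binding protein that blocks maturation of let-7 miRNAs, had 326, 287 and 322 in KO libraries, against 76.0, 81.4 and 86.8 in NT libraries (3.82-fold higher, 1.46 ± 0.095, adjusted p = 1.29e-06). Its paralog LIN28B differed by 0.30. TRIM71, another let-7 pathway gene, had 1023, 1004 and 1019.6 in KO libraries, against 613, 668 and 704 in NT libraries (0.58 ± 0.066). No value of these genes overlapped between the groups, as for 49.7% of all genes tested. DNMT3L and LIN28A were also named on that condition.

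GDF3, a TGF-beta family ligand of pluripotent cells, had 1198, 1238 and 1214 in KO libraries, against 616, 643 and 559 in NT libraries (0.94 ± 0.066, adjusted p = 2.23e-06). SALL4, a zinc finger factor that works with OCT4, had 1269, 1005 and 1469 in KO libraries, against 738, 771 and 673 in NT libraries (0.72 ± 0.11). NANOG, a core factor of the pluripotent state, had 443, 281 and 411 in KO libraries, against 277, 271 and 262 in NT libraries. KO replicate 2 lay near the NT libraries, and the NANOG call was weak (0.40 ± 0.13, adjusted p = 0.0376). L1TD1 (0.54), the NODAL co-receptor TDGF1 (0.59) and the long noncoding RNA ESRG (0.65) were also called higher. LEFTY2, a secreted NODAL antagonist, moved the other way, with 511, 488 and 567 in KO libraries, against 1175, 1021 and 1041 in NT libraries (-0.97 ± 0.078, adjusted p = 6e-06). ZFP42 (REX1) had 74.8, 77.2 and 91.3 in KO libraries, against 98.2, 99.2 and 102 in NT libraries and was not called, and neither DPPA4 (difference -0.03) nor PODXL (-0.04) was called.

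DNA methylation enzymes were higher or not called. Of 16 tested, 7 were called higher and 0 lower by limma, against 18.9% and 18.8% of all genes tested (median difference 0.22). At an unadjusted p under 0.05, 1 member was lower, against 3397 of the 15042 genes tested. Besides DNMT3L, the de novo methyltransferase DNMT3B had 805, 819 and 1014 in KO libraries, against 470.4, 476 and 467 in NT libraries (0.82 ± 0.087, adjusted p = 4.5e-05). The de novo enzyme DNMT3A had 1058, 1145 and 1116 in KO libraries, against 822, 895 and 792 in NT libraries (0.38 ± 0.066). TET1, which oxidises methylated cytosine, had 365, 363 and 333 in KO libraries, against 218, 234 and 305 in NT libraries (0.42 ± 0.11). UHRF1, which brings the maintenance enzyme to replicated DNA, differed by 0.34, and the maintenance enzyme DNMT1 itself by 0.04 with no call.

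Epithelial genes divided by type. Of 20 tested genes of simple epithelium and tight junctions, 9 were called higher and 1 lower (median difference 0.15). Over all genes tested 18.9% were called higher and 18.8% lower, with a median of 0.01. CLDN7, a claudin of tight junctions, had 611, 632 and 638 in KO libraries, against 261, 333 and 242 in NT libraries (2.25-fold higher, 1.04 ± 0.1, adjusted p = 2.31e-05). EPCAM, an adhesion molecule of simple epithelium and pluripotent cells, had 182, 215 and 178 in KO libraries, against 81.2, 100.5 and 96.9 in NT libraries (0.76 ± 0.11). CLDN6 had 77.3, 72.0 and 65.0 in KO libraries, against 23.2, 20.2 and 31.8 in NT libraries (0.79 ± 0.12), and the tight junction protein OCLN differed by 0.57. CDH1 (E-cadherin) had 494, 466 and 511 in KO libraries, against 455, 449 and 498 in NT libraries, with overlapping groups and no call (0.06). KRT7, a simple keratin, was the member called lower, with 59.7, 45.4 and 47.7 in KO libraries, against 163, 197 and 169 in NT libraries (-1.20 ± 0.11, adjusted p = 1.7e-05).

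Keratins and adhesion genes of stratified epithelium were lower in KO cells. Of 25 listed genes 19 were tested (median difference -0.92). Of these, 15 were called lower and 1 higher, against 18.8% and 18.9% of all genes tested. KRT17, a keratin of stressed and appendage epithelium, had 503, 534 and 549 in KO libraries, against 3238, 2909 and 2892 in NT libraries (5.70-fold lower, difference -2.39 ± 0.064, adjusted p = 1.84e-09). KRT14, the basal layer keratin, had 4185, 4056 and 3928 in KO libraries, against 14871, 14982 and 14343 in NT libraries (-1.85 ± 0.043), and its partner KRT5 had 13.7, 24.3 and 18.6 in KO libraries, against 92.6, 99.4 and 104 in NT libraries (-1.26 ± 0.12). KRT6A and KRT16, which are induced in activated epidermis, were lower too. KRT6A had 3415, 3468 and 3364 in KO libraries, against 11517, 10989.6 and 10621 in NT libraries (-1.68 ± 0.045), and reads from its near-identical copies KRT6B and KRT6C could be split among them. PKP1, a desmosome plaque protein, had 294, 286 and 292 in KO libraries, against 1034, 1034 and 1008 in NT libraries (-1.64 ± 0.065, adjusted p = 3e-08). The member called higher was COL17A1, the hemidesmosome collagen (0.30), a call that was lost without KO replicate 1, KO replicate 3 or NT replicate 1. TP63, the defining transcription factor of stratified epithelium, lay under the limit of the test, with 15.6, 27.1 and 2.32 in KO libraries, against 10.7, 9.04 and 7.46 in NT libraries.

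Before OSKM these keratins were near the floor in both groups. KRT17 had 3.19, 7.65 and 2.03 in KO libraries, against 11.9, 3.20 and 7.89 in NT libraries on day 0 (difference -0.18, adjusted p = 0.344), and KRT6A had 0, 2.81 and 0 in KO libraries, against 1.76, 0 and 0 in NT libraries.

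Genes of the collagen matrix were lower in KO cells almost throughout. Of 29 tested, 27 were called lower and 1 higher, against 18.8% and 18.9% of all genes (median difference -1.29, against 0.01). In bulk libraries, fewer cells of a type and less RNA per cell cannot be told apart, and this holds for each cell-type gene here. COL1A1 and COL1A2, the chains of type I collagen, differed by -1.80 ± 0.055 and -1.59 ± 0.04. COL1A1 had 75062, 80193 and 84629 in KO libraries, against 292140, 263735 and 276932 in NT libraries (3.47-fold lower, adjusted p = 5.1e-09). THBS1 (thrombospondin 1), a matricellular protein that can activate latent TGF-beta, had 2079, 2044 and 1992 in KO libraries, against 13189, 12263 and 13258 in NT libraries. That was 6.33-fold lower (-2.63 ± 0.047, adjusted p = 3.41e-10). Its relative THBS2 had 1092, 1157 and 1088 in KO libraries, against 4345, 4371 and 4489 in NT libraries (-1.93 ± 0.049). COL12A1, a fibril-associated collagen, had 3676, 3718 and 4003 in KO libraries, against 15525, 14079.5 and 14718 in NT libraries (-1.94 ± 0.051). LOXL2, a collagen cross-linking enzyme, had 2850.3, 2953 and 2711 in KO libraries, against 10504, 10112 and 9426 in NT libraries (-1.80 ± 0.053). Fibronectin (FN1) had 80062, 87388 and 87686 in KO libraries, against 216601, 214912 and 207573 in NT libraries (-1.33 ± 0.047). The exceptions were FBLN1, called higher with an adjusted p of 0.0423 (0.27), and elastin (ELN), which was not called (-0.24). The FBLN1 call was lost in 4 of the 6 fits that left out a library, and no member of the list was called higher in those fits.

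HAPLN1, which links hyaluronan to proteoglycans, was among the lowest genes outside the lists, with 220.3, 133 and 121 in KO libraries, against 1054, 1228 and 997 in NT libraries (-2.47 ± 0.15, adjusted p = 9.54e-07). CRYAB, a small heat shock protein of contractile cells, had 218, 166 and 214 in KO libraries, against 998, 936 and 1008 in NT libraries (-2.04 ± 0.093).

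Proteases that remodel the matrix and their inhibitors moved with it. Of 21 tested, 15 were called lower and 0 higher by limma, against 18.8% and 18.9% of all genes tested. At an unadjusted p under 0.05, too, 0 members were higher (median difference -0.67). PLAU, the urokinase plasminogen activator, had 283, 314 and 302 in KO libraries, against 1162, 1116 and 1151 in NT libraries (-1.76 ± 0.067, adjusted p = 2.66e-08). ADAMTS2, which trims procollagen, had 1218, 1228 and 1197 in KO libraries, against 3786, 3318 and 3589 in NT libraries (-1.51 ± 0.057). ADAMTS5, an aggrecan-cleaving protease, had 215, 261 and 222 in KO libraries, against 727, 662 and 786 in NT libraries (-1.44 ± 0.092). MMP14, a membrane collagenase, had 5699, 7112 and 5892 in KO libraries, against 14244, 13354 and 12823 in NT libraries (-1.11 ± 0.076). MMP2, the gelatinase that MMP14 activates, differed by -0.92 on day 6, whereas on day 0 it was higher in KO (0.45). The inhibitors TIMP1 (-0.68), TIMP2 (-0.63) and TIMP3 (-0.92) were also lower.

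Actin contractile genes and targets of TGF-beta were the other large group. Of 29 tested, 26 were called lower and 0 higher by limma, against 18.8% and 18.9% of all genes tested. At an unadjusted p under 0.05, too, 0 members were higher (median difference -1.12). ACTA2, smooth muscle actin and the usual myofibroblast marker, had 1227, 1281 and 1303 in KO libraries, against 6607, 6402 and 6843 in NT libraries (5.21-fold lower, -2.33 ± 0.049, adjusted p = 6.06e-10). TAGLN (SM22), an actin-binding protein, had 2039.5, 2205 and 2304 in KO libraries, against 10521, 9591 and 10683 in NT libraries (4.70-fold lower, -2.20 ± 0.059). The calponin CNN1 had 122, 122 and 135 in KO libraries, against 464, 469 and 484 in NT libraries (-1.56 ± 0.084). ITGA11, a collagen-binding integrin of fibroblasts, had 1152, 1114 and 1338 in KO libraries, against 7205, 4897 and 5406 in NT libraries (-2.21 ± 0.12, adjusted p = 3.46e-07). Each of these was lower in every KO library than in any NT library, a condition on which ACTA2, TAGLN and ITGA11 were named. INHBA, the activin A subunit, had 753, 773 and 726 in KO libraries, against 2783, 2466 and 2858 in NT libraries (-1.77 ± 0.065).

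The ligands TGFB1 (-0.70) and TGFB2 (-0.59) were called lower, as was the feedback inhibitor SMAD7 (-0.93). Among transcription factors of the mesenchymal state, SNAI2 had 533, 527 and 571 in KO libraries, against 1577, 1484 and 1577 in NT libraries (-1.42 ± 0.061, adjusted p = 5.94e-08). PRRX1 (-0.98), ZEB2 (-0.33) and ZEB1 (-0.24) were lower by less, and TWIST1 (0.08) and TWIST2 (-0.20) were not called.

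Many contractile genes are activated by serum response factor through a 10-base element, the CArG box, so the proximal promoters were searched for it. The promoters are those of RefSeq (GRCh38.p14), from 250 bases before to 50 bases after the gene start. ACTG2, gamma smooth muscle actin, had 191, 193 and 228 in KO libraries, against 546, 524 and 593 in NT libraries (-1.24 ± 0.089, adjusted p = 2.76e-06). Its promoter is shown as the member of the contractile list with a match, and that of ACTA2 as the best known member without an exact match in this window. Capitals mark the CArG box, taken as CC, 6 bases that are each A or T, and GG. TAGLN had no entry in the promoter table.
ACTG2: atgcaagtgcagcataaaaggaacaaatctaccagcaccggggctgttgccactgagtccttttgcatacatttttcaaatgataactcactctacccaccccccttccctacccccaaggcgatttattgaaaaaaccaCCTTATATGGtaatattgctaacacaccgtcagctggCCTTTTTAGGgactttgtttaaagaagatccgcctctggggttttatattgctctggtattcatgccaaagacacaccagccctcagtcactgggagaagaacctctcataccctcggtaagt
ACTA2: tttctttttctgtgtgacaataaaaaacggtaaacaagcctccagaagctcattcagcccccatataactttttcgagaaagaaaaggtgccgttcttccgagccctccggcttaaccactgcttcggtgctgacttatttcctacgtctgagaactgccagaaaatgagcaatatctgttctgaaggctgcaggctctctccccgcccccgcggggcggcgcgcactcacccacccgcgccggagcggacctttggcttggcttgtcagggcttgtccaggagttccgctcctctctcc
The ACTG2 window is chr2:73892758-73893057 (+ strand), with matches that start 110 and 73 bases before the gene start. The ACTA2 window is chr10:88991288-88991587 (- strand), at the outer end of the annotated gene (chr10:88935074-88991339). Any start inside the gene was not searched, so the lack of a match holds for this window alone. Of the 22 contractile genes with a promoter in the table, 1 had an exact match (4.55%), against 351 of 27305 promoters (1.29%) and 123 of 11344 promoters of tested genes (1.08%). Among genes called lower by more than 1, 8 of 183 had one (4.37%). A match is a string of letters, not a measured binding site.

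The fibroblast identity of the cells was checked on a fixed list of 11 markers. All were detected in every library, and 10 were called lower in KO, against 18.8% of all genes tested. The summed level of the list was 210100 to 223100 in KO libraries, against 581900 to 616200 in NT libraries. The collagens COL1A1, COL1A2 and COL3A1 held most of each sum and most of the gap between the groups. Outside these collagens, differences ran from -1.30 for FAP to -0.06 for S100A4. VIM (vimentin) had 27470, 26390 and 28070 in KO libraries, against 45970, 45580 and 44770 in NT libraries. DCN (decorin) had 778, 728 and 796 in KO libraries, against 1081, 1109.6 and 1028 in NT libraries and PDGFRA had 559, 546 and 630.2 in KO libraries, against 767, 701 and 737 in NT libraries, both with smaller differences than the collagens. S100A4 had 9026, 8474 and 8432 in KO libraries, against 8879, 9618 and 8487 in NT libraries and overlapped between the groups. The summed level of 8 pluripotent markers was 31880 to 32900 in KO and 25610 to 26090 in NT libraries, with 6 called higher. The sum includes POU5F1 and SOX2, whose introduced and endogenous transcripts cannot be told apart. Much of the gap between the groups lay in these genes, and DPPA4 and PODXL were not called.

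Genes of DNA replication and mitosis were higher in KO cells. Of 26 tested genes of the G1/S phase and replication, 22 were called higher and 0 lower by limma (median difference 0.43). MCM7, a subunit of the replicative helicase, had 4177, 4136 and 4188 in KO libraries, against 2662, 2736 and 2582 in NT libraries (0.64 ± 0.045, adjusted p = 2.25e-06). CDT1, which loads that helicase, had 499, 696 and 567 in KO libraries, against 396, 301 and 326 in NT libraries (0.69 ± 0.12). E2F1, the transcription factor of S-phase entry, had 1019, 973 and 957 in KO libraries, against 700, 638 and 626 in NT libraries (0.55 ± 0.066). Of 25 tested genes of G2 and mitosis, 19 were called higher and 0 lower (median difference 0.32). Over all genes tested 18.9% were called higher and 18.8% lower. At an unadjusted p under 0.05, too, 0 genes of either list were lower, and without KO replicate 1, 1 mitotic gene was called lower. NDC80, a kinetochore protein, had 1275, 1203 and 1257 in KO libraries, against 713, 734 and 784 in NT libraries (0.70 ± 0.061, adjusted p = 1.09e-05). HMMR, a spindle protein, had 1419, 1245 and 1390.2 in KO libraries, against 894, 772 and 891 in NT libraries (0.63 ± 0.075). MKI67, the usual proliferation marker, had 4589, 4500.2 and 4629 in KO libraries, against 4431, 4184 and 4375 in NT libraries and was not called (0.08 ± 0.044). Many of these genes were already higher in KO on day 0. There, 13 of the 26 G1/S genes and 23 of the 25 mitotic genes were called higher, against 7.04% of all genes. The day 0 medians were 0.24 and 0.44. The KO effect was called more positive on day 6 for 5 G1/S genes and more negative for 5 mitotic genes.

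Among inhibitors of the cell cycle and targets of p53, 3 of 23 were called higher and 8 lower (median difference -0.14). Over all genes tested these shares were 18.9% and 18.8%, so the share called higher was below that of all genes. Without KO replicate 2, 5 were called higher. CDKN2B (p15), a TGF-beta-induced inhibitor of CDK4 and CDK6, had 582, 444 and 594 in KO libraries, against 1199, 1213 and 1239.9 in NT libraries (-1.11 ± 0.095, adjusted p = 9.75e-06). CDKN1A (p21), the main p53-induced inhibitor, had 513, 552 and 509 in KO libraries, against 950, 823 and 844 in NT libraries (-0.68 ± 0.074). GADD45A, a p53 and stress target, had 435, 354 and 393 in KO libraries, against 762, 701 and 801 in NT libraries (-0.85 ± 0.086). CDKN1B (p27) moved the other way (0.34 ± 0.063), and so did the p53 target FDXR, with 174, 206 and 225 in KO libraries, against 102, 116 and 86.8 in NT libraries (0.73 ± 0.12). CDKN2A, which codes for p16 and ARF, overlapped between groups and was not called (-0.05).

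The interferon-stimulated genes, antiviral genes switched on by interferon signalling, split. Of 28 tested, 10 were called higher and 2 lower, against 18.9% and 18.8% of all genes tested. The median difference of 0.01 equalled that of all genes tested. IFI27 had the highest difference of all called genes, with 3898, 3826 and 3538 in KO libraries, against 876, 924 and 675 in NT libraries (4.55-fold higher, 2.12 ± 0.097, adjusted p = 9.16e-08). IFI6, an inhibitor of flavivirus replication, had 3715, 3982 and 3735 in KO libraries, against 2221, 2344 and 1746 in NT libraries (1.81-fold higher, 0.85 ± 0.091). MX1, a GTPase that traps viral particles, had 7305, 7697 and 7443 in KO libraries, against 3864, 4754 and 3969.6 in NT libraries (0.83 ± 0.071). IFITM1, which blocks virus entry, had 2143, 2468 and 2089.8 in KO libraries, against 1110.4, 1214 and 912 in NT libraries (1.02 ± 0.097, adjusted p = 2.13e-05). ISG15, a ubiquitin-like modifier, had 1729, 2021 and 1784 in KO libraries, against 1064, 1221 and 851 in NT libraries (0.80 ± 0.11), and its ligase HERC5 had 125, 109.7 and 169 in KO libraries, against 35.9, 49.7 and 43.7 in NT libraries (1.03 ± 0.14).

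OAS1, which makes the activator of RNase L, had 756, 891 and 821 in KO libraries, against 429, 519 and 403 in NT libraries (0.80 ± 0.095). The members called lower were its paralog OAS2, with 79.2, 148 and 84.3 in KO libraries, against 180.1, 149 and 151 in NT libraries (-0.48 ± 0.16, adjusted p = 0.0354), and IFIT2, with 149, 150.2 and 137 in KO libraries, against 217, 222 and 199.7 in NT libraries (-0.42 ± 0.091). The number called lower was 4 without KO replicate 2, and 1 without KO replicate 1, KO replicate 3, NT replicate 1 or NT replicate 2. STAT2 (0.04) and IRF9 (-0.16), which carry the interferon signal to the nucleus, were not called. NT replicate 3 was the lowest of the NT libraries for IFI27, IFI6, ISG15, IFITM1 and OAS1.

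The interferon genes had a different KO effect before OSKM. On day 0, 18 of the same 28 genes were called lower in KO (median difference -0.56), against a background of 10.3% of the tested genes called lower and 7.04% called higher on that day. The difference between the days (the KO effect on day 6 minus that on day 0, tested over all 12 libraries) was called positive for 16 of the 28, against 9.09% of all genes tested. IFI6 had 368, 296 and 406 in KO libraries, against 1102, 747 and 873 in NT libraries on day 0, so the group with more was reversed (day 0 difference -1.22, difference between days 2.07, adjusted p = 2.99e-06). MX1 (2.03), OAS1 (1.76) and IFI27 (2.74) were reversed in the same way. IFI44L was lower in KO on day 0 (-0.87) and did not differ beyond the spread on day 6, with 415, 396 and 410.2 in KO libraries, against 421, 435 and 340.4 in NT libraries.

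**Figure D3:**
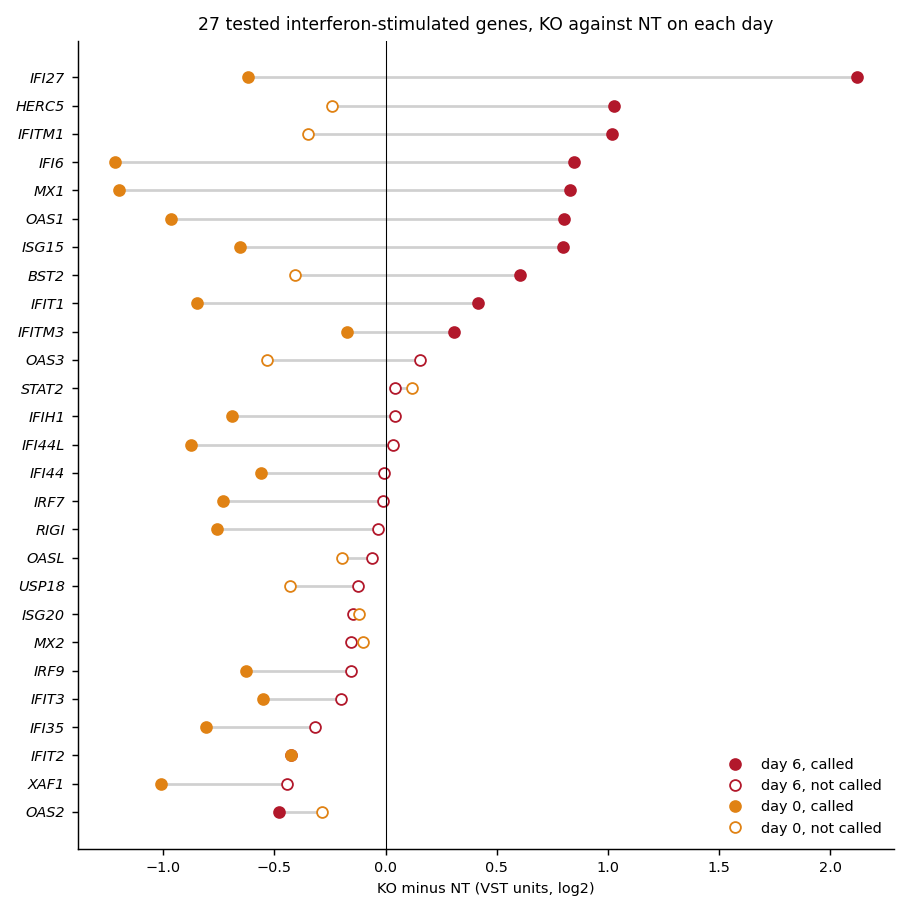
KO minus NT difference (x, VST units, log2) of 27 tested interferon-stimulated genes (y) on day 6 and day 0, with filled points for called genes and open points for genes not called. On day 6, 10 genes lie at called values above 0, whereas on day 0 the called genes shown, 17 in number, lie below 0.

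The promoters of these genes were searched for the interferon-stimulated response element (ISRE), taken as GAAA, any 2 bases and GAAA again, on either strand with overlapping matches counted. Shown are 3 genes that were higher in KO on day 6 and IFI44L, which was not called but carries the element as well. Capitals mark the ISRE.
IFI27: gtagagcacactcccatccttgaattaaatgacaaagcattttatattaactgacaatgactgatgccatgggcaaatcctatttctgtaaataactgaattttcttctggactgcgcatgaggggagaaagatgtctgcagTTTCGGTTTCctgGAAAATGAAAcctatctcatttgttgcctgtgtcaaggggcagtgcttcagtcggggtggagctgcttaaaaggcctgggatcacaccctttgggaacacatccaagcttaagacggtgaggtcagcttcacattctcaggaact
IFI6: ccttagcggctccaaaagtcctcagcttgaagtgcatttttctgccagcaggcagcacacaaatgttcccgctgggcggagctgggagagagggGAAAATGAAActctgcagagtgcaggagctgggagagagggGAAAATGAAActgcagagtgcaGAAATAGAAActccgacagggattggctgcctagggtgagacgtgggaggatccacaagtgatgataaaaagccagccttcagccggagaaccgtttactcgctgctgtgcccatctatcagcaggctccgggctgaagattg
ISG15: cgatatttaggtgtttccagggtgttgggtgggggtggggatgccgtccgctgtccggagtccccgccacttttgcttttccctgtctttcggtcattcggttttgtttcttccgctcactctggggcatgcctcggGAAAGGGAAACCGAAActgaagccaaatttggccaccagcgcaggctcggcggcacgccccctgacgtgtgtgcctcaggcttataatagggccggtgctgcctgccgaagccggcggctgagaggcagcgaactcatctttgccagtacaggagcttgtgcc
IFI44L: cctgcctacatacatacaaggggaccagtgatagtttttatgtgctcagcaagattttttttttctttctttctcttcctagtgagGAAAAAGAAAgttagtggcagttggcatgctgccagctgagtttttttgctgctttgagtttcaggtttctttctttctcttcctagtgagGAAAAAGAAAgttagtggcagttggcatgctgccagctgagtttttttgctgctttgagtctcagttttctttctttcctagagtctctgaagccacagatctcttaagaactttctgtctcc
The windows are chr14:94110486-94110785 (+ strand) for IFI27, chr1:27672143-27672442 (- strand) for IFI6, chr1:1013247-1013546 (+ strand) for ISG15 and chr1:78620198-78620497 (+ strand) for IFI44L. Matches started 108 and 95 bases before the gene start in IFI27, 156, 115 and 93 bases before it in IFI6, 113 and 107 bases before it in ISG15, where they overlap, and 164 and 73 bases before it in IFI44L.

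Of the 21 interferon genes with a promoter in the table, 15 held the ISRE (71.4%), against 996 of 27305 promoters (3.65%) and 317 of 11344 promoters of tested genes (2.79%). It stood in 9 of the 10 members called higher and in 6 of 11 members not called. Over the whole table, 6 of the 31 genes called higher by more than 1 that had a promoter held it (19.4%). Among all genes called higher the share was 3.8%, and among all genes called lower 2.5%.

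Inflammatory cytokines and chemokines, which respond mainly to NF-kappa-B and AP-1, were lower. Of 24 listed genes 20 were tested (median difference -0.42). By limma 13 were called lower and 0 higher, against 18.8% and 18.9% of all genes tested. At an unadjusted p under 0.05, 2 were higher, and 2 were called higher without KO replicate 2. PTX3, a secreted pattern recognition protein, had 192, 175 and 153 in KO libraries, against 604, 615 and 577 in NT libraries (-1.53 ± 0.088, adjusted p = 5.36e-07). IL1B had 219.5, 236 and 199 in KO libraries, against 445, 402 and 441 in NT libraries (-0.83 ± 0.088), and the adhesion molecule ICAM1 had 485, 493 and 462 in KO libraries, against 905, 847 and 746 in NT libraries (-0.73 ± 0.079). LIF, a cytokine that sustains mouse pluripotent cells, had 187, 196 and 138 in KO libraries, against 424, 388 and 262 in NT libraries (-0.85 ± 0.16). CXCL8 (-0.57) and CCL2 (-0.43) were called lower as well. IL6 was under the limit and not tested.

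Among genes of the integrated stress and unfolded protein responses, 15 of 24 were called lower and 0 higher by limma (median difference -0.23). Over all genes tested 18.8% were called lower and 18.9% higher. At an unadjusted p under 0.05, too, 0 members of the list were higher. TRIB3, a pseudokinase induced by ATF4, had 645, 686 and 662 in KO libraries, against 1573, 1518 and 1523 in NT libraries (-1.15 ± 0.057, adjusted p = 1.55e-07). CHAC1, a glutathione-degrading enzyme and ATF4 target, had 482, 532 and 486 in KO libraries, against 1142, 1125 and 1135 in NT libraries (-1.10 ± 0.064). SLC7A11, the cystine transporter, had 1543, 1368 and 1403 in KO libraries, against 2267, 2171 and 2615 in NT libraries (-0.68 ± 0.075), and SESN2, a stress target shared with p53, had 447, 444 and 515 in KO libraries, against 926, 797 and 765 in NT libraries (-0.75 ± 0.087). The transcript of ATF4 itself overlapped between the groups (-0.05), and the chaperone HSPA5 differed by -0.20.

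Signalling genes that pattern early embryos were uneven. In the BMP and NODAL pathway 4 of 24 tested genes were called higher and 10 lower (median difference -0.16), against 18.9% and 18.8% of all genes tested. GREM1, a secreted BMP antagonist of fibroblasts, had 2380, 2277 and 2339 in KO libraries, against 9550.4, 8802 and 9478 in NT libraries (3.98-fold lower, -1.97 ± 0.048, adjusted p = 1.44e-09). NOG, another antagonist, differed by -0.73, and BMP1, a procollagen protease despite its name, had 3832, 3950.2 and 4011 in KO libraries, against 7627, 7009 and 6678 in NT libraries (-0.84 ± 0.054). The BMP target genes ID2 (-0.46) and ID3 (-0.36) were called lower, and ID1 was not (-0.18). The activin receptor ACVR2B was higher (0.61).

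In the WNT pathway 1 of 19 tested genes was called higher and 7 lower (median difference -0.31), against 18.9% and 18.8% of all genes tested. DKK3, a secreted member of the Dickkopf family, had 3055, 3027 and 3062 in KO libraries, against 9566, 9759 and 8997 in NT libraries (-1.61 ± 0.045, adjusted p = 2.59e-09). WNT5A, a noncanonical ligand, had 627, 781 and 665 in KO libraries, against 1459, 1506 and 1583 in NT libraries (-1.08 ± 0.079). LGR5, a receptor for R-spondins, had 12.4, 16.3 and 7.54 in KO libraries, against 79.9, 60.3 and 90.5 in NT libraries (-1.24 ± 0.14), and the ligand WNT2 had 10.4, 9.82 and 9.82 in KO libraries, against 72.6, 55.7 and 63.4 in NT libraries (-1.14 ± 0.11). Both averaged less in KO than the limit of the test and so passed it only through the NT libraries. AXIN2, a standard target of canonical signalling, was lower, at a difference of -0.31 on day 6 and differed by 0.64 on day 0.

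Of 19 tested genes of FGF signalling, 4 were called higher and 7 lower (median difference 0.09), against 18.9% and 18.8% of all genes tested, so that the share called higher was near that of all genes. FGF2, a ligand used in the culture of human pluripotent cells, had 410.1, 428 and 451 in KO libraries, against 705, 662 and 793 in NT libraries (-0.67 ± 0.08). FGF1 had 211, 135 and 127 in KO libraries, against 381, 349 and 313 in NT libraries (-0.95 ± 0.14) and FGF5 had 46.6, 49.9 and 55.7 in KO libraries, against 108, 101 and 137 in NT libraries (-0.74 ± 0.12). The feedback phosphatase DUSP4 had 114, 80.7 and 112 in KO libraries, against 201, 176 and 189 in NT libraries (-0.66 ± 0.12), and the receptor FGFR1 was higher by a small amount (0.22).

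In the IGF system and among imprinted genes 1 of 20 tested was called higher and 10 lower (median difference -0.23). Over all genes tested 18.9% were called higher and 18.8% lower. The secreted IGF-binding proteins IGFBP7, IGFBP5 and IGFBP4 led. IGFBP7 had 1668, 1638 and 1699 in KO libraries, against 5433, 5177 and 4850.4 in NT libraries (-1.59 ± 0.052, adjusted p = 9.42e-09). IGFBP5 had 12078, 13054 and 12905 in KO libraries, against 31008, 29100.4 and 30569 in NT libraries (-1.25 ± 0.045), and IGFBP4 had 3563, 3848 and 3833 in KO libraries, against 9037, 8603 and 8703 in NT libraries (-1.22 ± 0.047). The imprinted gene MEST had 461, 496 and 470.4 in KO libraries, against 1008, 761 and 821 in NT libraries (-0.78 ± 0.095). IGF2, the growth factor, was lower, at a difference of -0.30 on day 6 and higher in KO on day 0 (0.82). The imprinted gene PEG10 was the member called higher (0.59 ± 0.096).

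Histone H3 lysine 36 and polycomb enzymes had 10 of 27 called higher and 3 lower, against 18.9% and 18.8% of all genes. Without the filter on low values 6 members were called higher, and without KO replicate 3 only 1 was called lower. CBX2, a polycomb reader of methylated lysine 27, had 397, 428 and 426 in KO libraries, against 207, 183 and 167 in NT libraries (0.98 ± 0.091, adjusted p = 1.68e-05). EZH2, the lysine 27 methyltransferase, had 848, 777 and 829 in KO libraries, against 572, 581 and 557 in NT libraries (0.48 ± 0.065). CBX8 had 169.8, 203 and 164 in KO libraries, against 115, 139 and 59.0 in NT libraries (0.61 ± 0.18, adjusted p = 0.0232), with NT replicate 3 well below the others, and was not called without KO replicate 2 (adjusted p = 0.0807). SETD2, which places most lysine 36 trimethylation, was slightly lower (-0.17).

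Genes known to hinder or help reprogramming had 6 of 28 called higher and 6 lower (median difference 0.09), near the 18.9% and 18.8% of all genes tested, so the list as a whole did not stand out and the values below describe single genes. The chromatin assembly factor subunits CHAF1A, with 1182, 1178 and 1247 in KO libraries, against 801, 789.7 and 844 in NT libraries (0.54 ± 0.059), and CHAF1B (0.44) were higher, although in mouse cells the complex is known as a barrier. KDM1A (LSD1), a lysine 4 demethylase, had 10831, 10863 and 11209 in KO libraries, against 6622, 7549.6 and 6823 in NT libraries (0.65 ± 0.052, adjusted p = 6.51e-06). FOSL1, an AP-1 factor of somatic cells, had 146, 179 and 169.6 in KO libraries, against 315, 280.2 and 278 in NT libraries (-0.67 ± 0.097), and JUN (-0.52) and JUNB (-0.46) were lower too. GLIS1, a zinc finger factor that can replace MYC in mouse reprogramming, had 36.5, 33.5 and 47.1 in KO libraries, against 108, 90.0 and 91.2 in NT libraries (-0.77 ± 0.12).

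Among splicing regulators 9 of 24 were called higher and 3 lower (median difference 0.16), against 18.9% and 18.8% of all genes tested. MBNL1, a splicing regulator of differentiated cells that opposes pluripotent isoforms, had 1417, 1402 and 1383 in KO libraries, against 1886, 1902 and 2021 in NT libraries (-0.45 ± 0.052, adjusted p = 7.8e-05). RBFOX2 had 3325, 3622 and 3404 in KO libraries, against 4694, 4303 and 4786 in NT libraries (-0.41 ± 0.055). RBM47, an epithelial splicing factor, had 233, 226 and 287 in KO libraries, against 121, 169.9 and 130.3 in NT libraries (0.65 ± 0.12), and RBM38 had 449, 469 and 453 in KO libraries, against 329, 316 and 306 in NT libraries (0.46 ± 0.074). PTBP1, the gene of PTB, differed by 0.22. Splicing itself was not analysed here.

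Housekeeping groups shifted by small amounts. Of 30 respiratory chain subunits 22 were called higher and 0 lower by limma (median difference 0.25), led by NDUFV1 of complex I, with 4042, 3836 and 4231 in KO libraries, against 2605, 2773 and 2549.9 in NT libraries (0.60 ± 0.054, adjusted p = 1.32e-05). Subunits of complex IV were higher by less, with COX5B at 0.43 ± 0.068, COX6C at 0.39 ± 0.082 and COX5A at 0.33 ± 0.053. Of 30 cytosolic ribosomal proteins 22 were also called higher and 0 lower (median difference 0.19). Over all genes tested 18.9% were called higher and 18.8% lower. At an unadjusted p under 0.05, too, 0 members of these lists were lower. The number of ribosomal proteins called higher was 11 in limma without the trend and 14 without NT replicate 1. RPS20 had 12201, 11344 and 11859 in KO libraries, against 8817, 9453 and 8514 in NT libraries (0.40 ± 0.05), and RPL18 (0.37), RPL8 (0.32) and RPS2 (0.31) followed. Many ribosomal proteins have processed pseudogenes that could share reads.

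Of 28 genes of glycolysis and the hypoxia response, 11 were called higher and 4 lower, against 18.9% and 18.8% of all genes tested. The number called higher was 7 without NT replicate 3. HK2, an inducible hexokinase, had 2336, 2426 and 2371 in KO libraries, against 1638, 1759 and 1742 in NT libraries (0.46 ± 0.051), ENO2 had 1062, 1094 and 958 in KO libraries, against 643, 614 and 636 in NT libraries (0.67 ± 0.068) and the mitophagy gene BNIP3 had 1054, 1202 and 1092 in KO libraries, against 791, 847 and 735 in NT libraries (0.47 ± 0.073). NDRG1, a hypoxia-induced gene, had 1052, 1271 and 1038 in KO libraries, against 1723, 1594 and 1549.8 in NT libraries (-0.52 ± 0.08), and VEGFA was lower as well (-0.43). In cholesterol and fatty acid synthesis 11 of 29 were called higher and 3 lower, against the same 18.9% and 18.8%. The number called lower was 1 without NT replicate 1. NSDHL (0.50 ± 0.068), the elongase ELOVL6 (0.49 ± 0.073) and HMGCS1 (0.40 ± 0.068) were higher, while the regulator SREBF2 was lower, at a difference of -0.13.

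**Figure D4:**
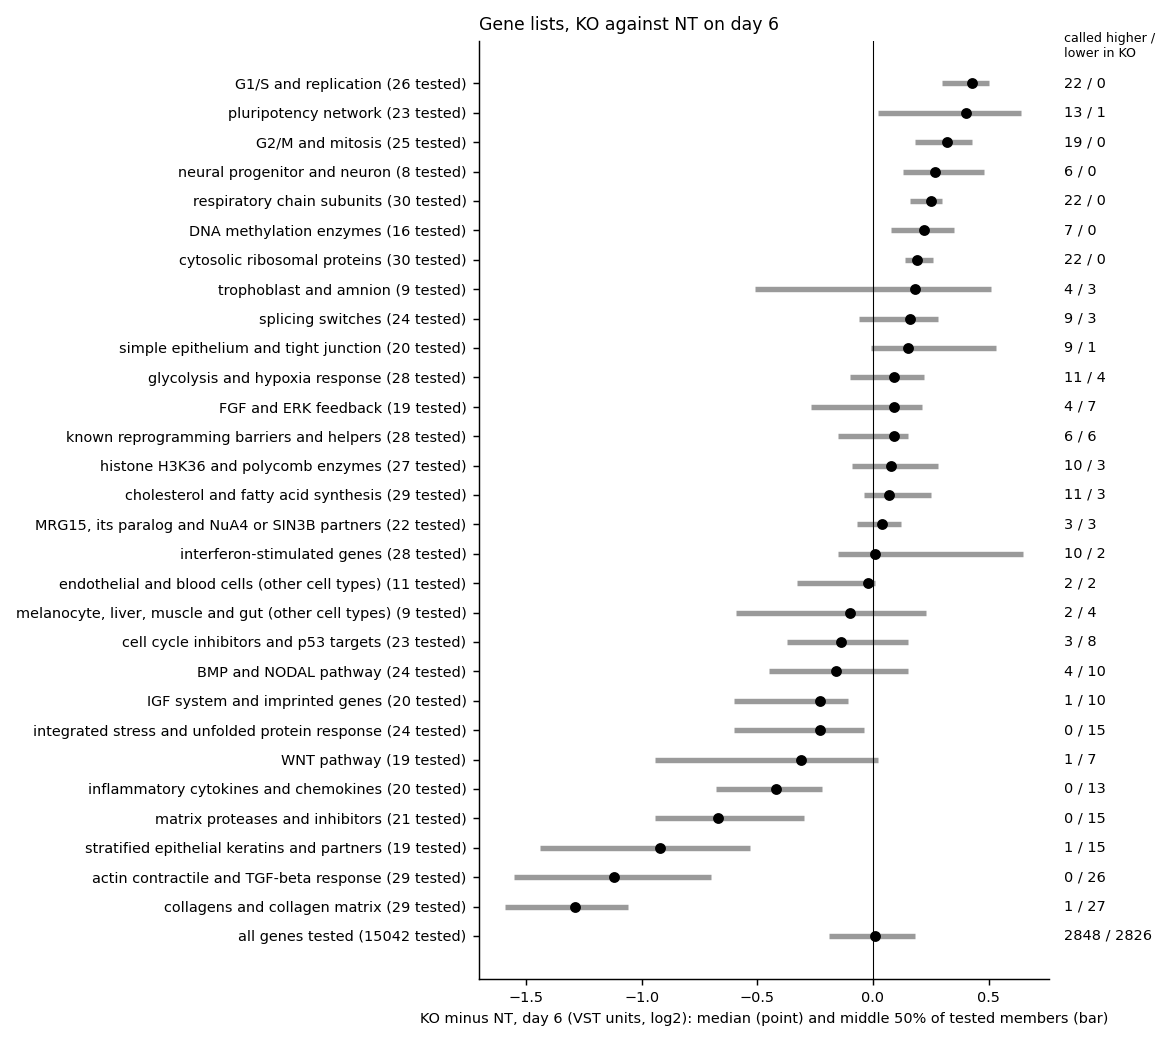
Median (point) and interquartile range (bar) of the KO minus NT differences on day 6 (x, VST units, log2) for the tested members of 29 gene lists and for all genes tested, with the numbers called higher and lower in KO at the right. The collagen, contractile and stratified keratin lists lie lowest, at medians of -1.29, -1.12 and -0.92, and the G1/S and pluripotency lists highest, at 0.43 and 0.40.

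Genes of other lineages were mostly low. Of 20 listed neural genes 8 were tested (median difference 0.27). By limma 6 were called higher and 0 lower, against 18.9% and 18.8% of all genes tested. At an unadjusted p under 0.05, too, 0 neural genes were lower. NES (nestin), an intermediate filament of progenitors, had 2603, 2473 and 2768 in KO libraries, against 1987, 1861 and 1816 in NT libraries (0.46 ± 0.058), and CALB1, a calcium-binding protein, had 6388, 6378 and 6375 in KO libraries, against 3425, 3696 and 3769.6 in NT libraries (0.81 ± 0.047). SOX4 (0.33) and MAP2 (0.54) were higher too. On day 0, 5 of the 8 tested neural genes were already called higher and 0 lower (median difference 0.33). Over all genes these shares were 7.04% and 10.3% on that day. The KO effect was called more positive on day 6 for 3 of the 8 and more negative for 3. The defining neural factors PAX6 and SOX1 lay under the limit, and SOX1 had 0, 0 and 0 in KO libraries, against 2.77, 1.78 and 1.84 in NT libraries. Of 18 listed trophoblast and amnion genes 9 were tested, with 4 called higher and 3 lower, against 18.9% and 18.8% of all genes tested. ERVW-1 (syncytin-1), an envelope gene of placental cell fusion, had 1674, 1785 and 1696 in KO libraries, against 870, 1025 and 913 in NT libraries (0.84 ± 0.067), and GATA2 had 488, 466 and 509 in KO libraries, against 280.1, 275 and 235 in NT libraries (0.77 ± 0.086). TFAP2A had 127, 145 and 119.7 in KO libraries, against 227, 281 and 239 in NT libraries (-0.72 ± 0.11), and IGFBP3 had 2306, 2288 and 2249.7 in KO libraries, against 4745, 4706 and 4706 in NT libraries (-1.03 ± 0.043). GATA3, CGA and ELF5 lay under the limit.

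Of the endothelial and blood genes 11 of 18 were tested, with 2 called higher and 2 lower (median difference -0.02), near the 18.9% and 18.8% of all genes tested. The number called lower was 1 without KO replicate 2, NT replicate 1 or NT replicate 2. PTPRC (CD45), the pan-leukocyte marker, had 60.4, 72.5 and 70.7 in KO libraries, against 18.1, 29.2 and 28.6 in NT libraries (0.74 ± 0.12), while the blood markers SPI1, CD14 and LYZ lay under the limit. HBA1, an alpha globin with a near-identical copy in HBA2, had 598, 729 and 631 in KO libraries, against 418, 471 and 369.9 in NT libraries (0.58 ± 0.098). RUNX1 had 737, 666 and 721 in KO libraries, against 1136, 941 and 1121 in NT libraries (-0.55 ± 0.08). VWF had 55.3, 55.9 and 53.6 in KO libraries, against 80.0, 97.3 and 68.3 in NT libraries (-0.34 ± 0.12, adjusted p = 0.0394), and its call was lost in 5 of the 6 fits that left out a library, with adjusted p up to 0.138. The remaining lineage markers had 9 of 23 tested, among them the cardiac actin ACTC1, lower with 336, 286 and 386 in KO libraries, against 905, 723 and 853 in NT libraries (-1.18 ± 0.11), and GATA6, lower with 65.6, 33.2 and 47.3 in KO libraries, against 119.8, 128 and 139.6 in NT libraries (-0.91 ± 0.14). The gut genes VIL1, with 52.4, 87.8 and 61.7 in KO libraries, against 7.92, 8.83 and 18.3 in NT libraries (1.13 ± 0.15), and CDX1, with 116, 109.9 and 109 in KO libraries, against 28.3, 42.7 and 37.1 in NT libraries (0.98 ± 0.11), were higher at low levels. VIL1 averaged less in NT libraries than the limit of the test and so passed it only through the KO libraries.

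Beyond the lists, the highest called genes included ALPG, the germ cell alkaline phosphatase, with 646, 772 and 686 in KO libraries, against 199, 203 and 173 in NT libraries (3.66-fold higher, 1.62 ± 0.091, adjusted p = 4.05e-07). ALPP, the placental alkaline phosphatase, had 199, 211 and 218 in KO libraries, against 40.1, 67.1 and 53.4 in NT libraries (1.36 ± 0.12). Since the ALPG and ALPP sequences are nearly identical, reads may be divided between them. SCN3A, a sodium channel, had 240.2, 122 and 124 in KO libraries, against 25.8, 29.7 and 37.4 in NT libraries (1.42 ± 0.19), with KO replicate 1 well above the other KO libraries. RHBDL3, a rhomboid-like protein, had 585, 449 and 553 in KO libraries, against 144, 170 and 180.4 in NT libraries (1.42 ± 0.11). LHX9, a homeobox factor of gonad and limb development, had 341, 289.6 and 301 in KO libraries, against 82.0, 106 and 70.6 in NT libraries (1.41 ± 0.12).

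ADD2, a subunit of the membrane skeleton protein adducin, had 565, 383 and 507 in KO libraries, against 147, 152 and 148 in NT libraries (1.40 ± 0.12). ESAM, an adhesion molecule of endothelial junctions, had 494, 517 and 409 in KO libraries, against 169, 142 and 134 in NT libraries (1.39 ± 0.11). HOOK1, a microtubule linker, had 415, 615 and 392 in KO libraries, against 154, 153 and 162 in NT libraries (1.31 ± 0.14), and P2RX3, an ATP-gated channel, had 281, 312 and 317 in KO libraries, against 79.8, 109.8 and 97.2 in NT libraries (1.29 ± 0.11). Each of these 4 genes had fewer than 10 estimated counts on average in both groups on day 0. Absence of overlap on day 6 was a condition for their choice, and 49.7% of all genes tested met it.

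The KO effect of day 6 was also set beside that of day 0 on the same 15042 genes. On day 0, 2614 genes (17.4%) were called, with 10.3% lower and 7.04% higher. The filter used day 6 levels alone, so genes near the floor on day 0, such as DNMT3L, could hardly be called there. The days share no libraries. Of the 2826 genes called lower on day 6, 875 (31.0%) were called lower on day 0 as well, which is 56.3% of those called lower on day 0, and 167 were called higher there. Of the 2848 genes called higher on day 6, 388 (13.6%) were called higher on day 0, which is 36.6% of those called higher on day 0, and 113 were called lower there. The difference between the days was called for 3019 genes (20.1%), with 1368 positive and 1651 negative.

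Among the genes whose effect was more negative on day 6, CPA4, a carboxypeptidase, had 1159, 1254 and 1116 in KO libraries, against 3256, 3502 and 3466 in NT libraries on day 6 (-1.49 ± 0.058), but 8067, 7603 and 8534 in KO libraries, against 4457, 3919 and 5037 in NT libraries on day 0 (difference between days -2.34, adjusted p = 5.94e-09). SERPINB7 had 286, 259 and 229 in KO libraries, against 472, 497 and 469 in NT libraries on day 6, but 5411, 5433 and 5499.7 in KO libraries, against 2739, 2867 and 2826 in NT libraries on day 0 (difference between days -1.72). RAB27B, a GTPase of vesicle secretion, had 68.4, 61.3 and 72.2 in KO libraries, against 107, 99.0 and 133 in NT libraries on day 6, but 297, 299 and 322 in KO libraries, against 61.9, 77.2 and 68.7 in NT libraries on day 0 (-2.07). GREM1, lower in KO on day 6, had 87450.4, 92071 and 87861 in KO libraries, against 97325, 96009 and 95986 in NT libraries on day 0, a difference of -0.11 that was not called. In the other direction RGS5, a G-protein regulator of pericytes, had 677, 732 and 843 in KO libraries, against 349, 407 and 250.5 in NT libraries on day 6 (1.06 ± 0.14), but 245, 269 and 253 in KO libraries, against 539, 524 and 589 in NT libraries on day 0 (difference between days 2.02, adjusted p = 2.16e-06).

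Chromosome 15, which carries MORF4L1, had a lower median difference than every other chromosome. Over genes with a mean at least 3 above the minimum, the median was -0.083 on day 6 (331 genes), whereas the other 22 chromosomes had medians of -0.042 to 0.091. On day 0 it was -0.175, against -0.023 to 0.031. On day 6, 34.4% of its genes were called lower and 10.6% higher. The other chromosomes had 13.4 to 24.5% called lower and 18.0 to 32.0% higher. Against the mean of the NT libraries, each KO library showed it, at -0.103, -0.110 and -0.080. On day 6 the lower median was not limited to the vicinity of MORF4L1. It was -0.086 for 37 genes more than 40 Mb before the gene, -0.061 for 105 genes at 20 to 40 Mb before it, -0.089 for 114 genes up to 20 Mb before it, -0.044 for 30 genes up to 10 Mb after it and -0.134 for 44 genes farther on. On day 0 the stretch more than 40 Mb before the gene had a median of -0.06, against -0.182 to -0.196 in the other stretches. THBS1, GREM1, ITGA11, CHAC1 and ACTC1, described above, lie on this chromosome. The number of copies of chromosome 15 was not measured.

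**Figure D5:**
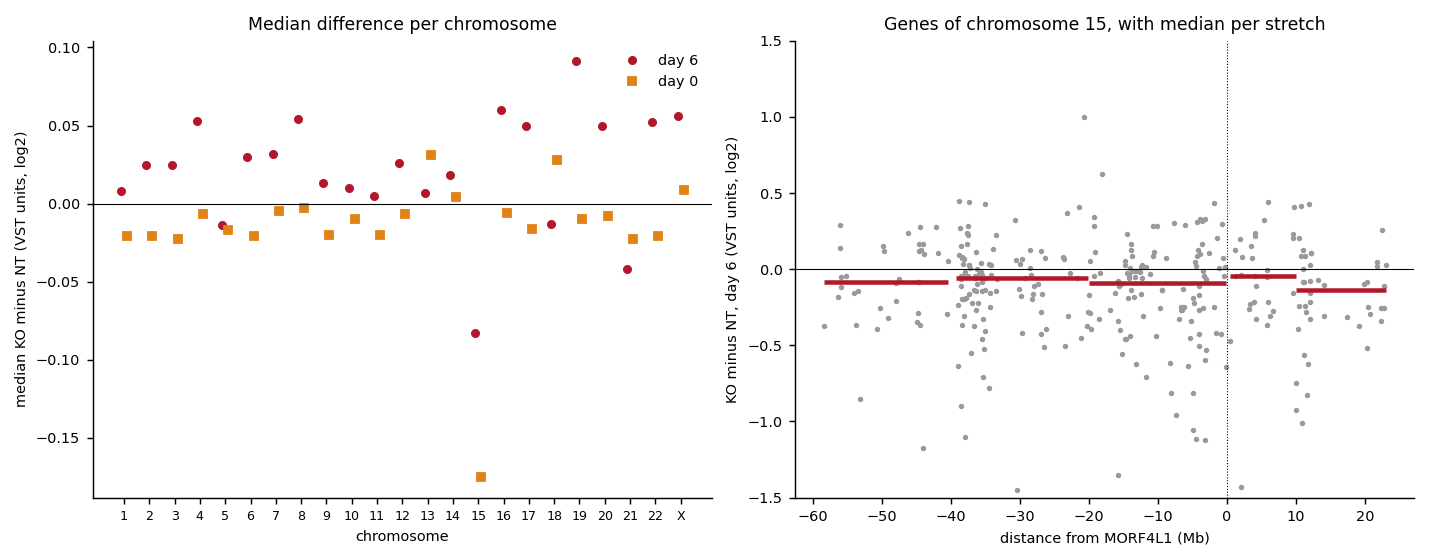
Left, the median KO minus NT difference (y, VST units, log2) of each chromosome (x) on day 6 and day 0. Right, the day 6 difference (y) of chromosome 15 genes against their distance from MORF4L1 (x, Mb), with the median of each of 5 stretches as a line and 4 genes beyond the axis left out. Chromosome 15 is lowest on both days, at -0.083 on day 6 and -0.175 on day 0.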

How the data were processed

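Polyadenylated RNA of dH1f cells was sequenced as 12 libraries, per the labels' protocols using Zymo Research and TruSeq Stranded mRNA kits. Per the submitters' processing notes the authors used the tools STAR, Salmon and DESeq2 and the build GRCh38. Tool versions and the strand setting of the counting are not given in the sources read here. In the deposited matrix the values are log2, from the variance-stabilising transformation that the authors ran in DESeq2. Here normalised counts were estimated by inverting that transformation in its parametric form, an assumption on which levels and folds depend. Between 62.9 and 69.8% of low values were within 0.1 of a whole number, too few for a count model.

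KO and NT libraries of day 6 were compared with limma 3.58.1 (trend, R 4.3.3) on the deposited log2 values, two-sided, with Benjamini-Hochberg adjustment. Day 0 and the difference between days came from a 12-library fit with 4 groups. The procedure was tested on simulated data. A number shared by replicates of KO and NT did not pair them (correlations of deviations -0.034, -0.024 and 0.026).

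The 29 lists (727 genes), the named genes and the tests were chosen with earlier results of these data known. Named were MORF4L1, MORF4L2 and the OSKM genes, the 12 highest and 12 lowest called genes without overlap, up to 4 called members per list and the 6 largest differences between days in each direction. Other genes named from the lists, the ISRE search and the promoters printed, ACTA2 excepted, were chosen after values were seen. Symbols came from the table (14403 of the genes tested had one) and coordinates from GENCODE 29. Counts over lists include a few genes that are not reported here by name, in the text or the plots. Genes that overlap on opposite strands may share reads. Alternatives were other filters, scalings, pseudocounts of 1 and 10, variance models, a replicate block and each library left out.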

Additional observations from a re-analysis of the deposited data

Results flagged for a closer look

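Of 131 named genes, 102 also passed the limit on day 0, and for 71 of these the KO effect on day 6 differed from that on day 0 in the 12-library limma test of the difference itself (adjusted p from 8.09e-11 to 0.0475). Over all genes tested the difference was called for 20.1%, but many named genes were chosen for large effects on day 6 or between days. A high share among them therefore followed in part from the choice. The effect was more negative on day 6 for 44 genes and more positive for 27, counts that rest on the same choice. Each value below is the KO effect on day 6 minus the KO effect on day 0, in VST units. No cause of these differences was tested, and cells of the 2 days also differ in OSKM, time in culture and composition. Groups of 3 libraries were too small for a test of single outlying samples.

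For 12 genes the effect was called on both days and in opposite directions. Lower in KO on day 6 but higher on day 0 were CPA4 (-2.34), RAB27B (-2.07), SERPINB7 (-1.72), NDRG1 (-1.28), FOSL1 (-0.99) and VWF (-0.91). Both limma calls of VWF were marginal (adjusted p = 0.0394 on day 6 and 0.0447 on day 0). Its groups overlapped on day 0, with 17.6, 68.6 and 33.9 in KO libraries, against 18.4, 11.2 and 12.4 in NT libraries. Higher on day 6 but lower on day 0 were IFI27 (2.74), IFI6 (2.07), MX1 (2.03), RGS5 (2.02), OAS1 (1.76) and the respiratory subunit COX5A (0.64). The interferon genes IFITM1 (1.36) and HERC5 (1.27) also had more positive effects on day 6.

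Matrix and contractile genes were lower in KO by more on day 6. The values were -1.63 for THBS1, -1.59 for COL12A1, -1.51 for ITGA11, -1.36 for LOXL2 and -1.30 for TAGLN. They were -1.15 for HAPLN1, -1.09 for THBS2, -0.86 for CRYAB and -0.78 for ACTA2. The keratin KRT7 had -1.11. Among proteases the values were -1.43 for PLAU, -1.22 for ADAMTS2, -1.08 for MMP14, -0.89 for ADAMTS5 and -0.34 for BMP1.

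Secreted factors of signalling pathways had the same sign. These were GREM1 (-1.85), DKK3 (-1.15), WNT5A (-1.14), the receptor LGR5 (-1.10), FGF1 (-0.69), FGF2 (-0.42), IGFBP4 (-1.18), IGFBP5 (-1.13), IGFBP7 (-0.87) and IGFBP3 (-0.23). The cytokine IL1B (-0.83) and PTX3 (-1.37) belonged here too. Stress and feedback genes were TRIB3 (-0.53), SESN2 (-0.41), CHAC1 (-0.38), GADD45A (-0.37) and DUSP4 (-0.57). The rest of the negative values belonged to GLIS1 (-0.85), MEST (-0.81), TFAP2A (-0.55), RUNX1 (-0.54), RBFOX2 (-0.37) and MORF4L1 itself (-0.21).

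More positive effects on day 6 were found for LHX9 (1.33), MAP2 (0.66) and NES (0.50). Chromatin and DNA methylation genes were DNMT3B (0.63), DNMT3A (0.43) and KDM1A (0.54). Lipid synthesis genes were HMGCS1 (0.56), NSDHL (0.47) and ELOVL6 (0.46). Energy and growth genes were HK2 (0.47), COX6C (0.46), COX5B (0.41), NDUFV1 (0.42), E2F1 (0.36), MCM7 (0.27) and RPL8 (0.23). The splicing regulator RBM38 (0.38) and the reprogramming factors KLF4 (0.24) and MYC (0.24) completed the set.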

How the results depend on the processing

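The number of genes called on day 6 stayed between 4550 and 5808 over all alternatives, against 5674. With the replicate block it was 5330, of which 5164 were also called without it. Leaving out 1 library gave 4550 to 5034 calls, and the difference between days 2424 to 3052, or 2951 with the block. Shifting libraries to a common median made 55.2% of calls higher in KO, against 50.2%. Among list counts of 5 or more, those outside 1.5 times were the histone H3K36 and polycomb list (6 called higher without the filter, against 10), the glycolysis list (7 without the trend, and 7 to 11 with a library left out, against 11) and the ribosomal proteins (11 without the trend, and 14 to 27 with a library left out, against 22). Counts under 5 moved more often. The interferon genes called lower were 1 to 4 over all alternatives (4 with the block), against 2. Members called higher fell to 0 in at least 1 alternative for the collagens and the stratified keratins (against 1), and to 1 for the MRG15 partners (against 3) and each list of other cell types (against 2). They reached 5 for the cell cycle inhibitors (against 3) and 2 for the cytokines (against 0). Members called lower fell to 1 for the polycomb and cholesterol lists (against 3) and the endothelial and blood list (against 2), and reached 1 for the neural, mitotic and DNA methylation lists (against 0). MORF4L2 changed sign under quantile normalisation, to 0.0008, and was not called in either fit. With the block, MYC, MRFAP1L1 and VWF were no longer called (adjusted p = 0.0616, 0.0546 and 0.0523), and no other named gene lost its call. The cause of these shifts was not tested. Genes with fewer than about 14.4 estimated counts were not tested, and the depth of 17.83 to 22.17 M reads limits what can be seen at low levels.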
